A study of Mus musculus with 8 samples.

Results

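The interferon-inducible guanylate-binding proteins (GBPs) and immunity-related GTPases (IRGs) were followed here as 10 named genes of 25239 in the deposited table: Gbp2, Gbp3, Gbp6, Gbp7, Gbp8 and Gbp9 of the GBP family, and Igtp, Irgm1, Irgm2 and Iigp1 of the IRG family. They were chosen by name, and all 10 were in the table and passed the filter on low counts. Bulk RNA-seq counts were available for intestinal epithelial cells (IECs) from crypts of the proximal small intestine, with the question of how the epithelium differs in the absence of CD1d and thereby of NKT cells. There were 4 samples from CD1d-KO mice, in which the adjoining genes Cd1d1 and Cd1d2 are deleted (labelled CD1d1/2 KO), and 4 from wild-type (WT) mice (labelled C57BL/6Jax). All mice were untreated and 7 to 10 weeks old, and 150000 EpCAM+ CD45- CD31- Ter119- cells were sorted per sample. CD1d-KO mice lack NKT cells throughout the body, so CD1d itself and NKT cells cannot be told apart in this comparison. Each sample is 1 mouse per the study's methods.

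GBPs and IRGs are GTPases that cells make in large amounts after exposure to interferons, above all interferon-gamma. They gather on the membranes of vacuoles that hold parasites or bacteria, and on some bacteria directly, and help to break them open or to set off inflammasomes. Among the IRGs, Irgm1, Irgm2 and Igtp (also called Irgm3) act as regulators that keep effector IRGs such as Iigp1 (Irga6) inactive on the cell's own membranes. Transcription follows from factors that bind 2 kinds of short element, the GAS element and the interferon-stimulated response element (ISRE), and STAT2, IRF9 and IRF1 act at ISREs.

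The promoters are shown because these elements are the best-known point at which interferon signals reach GBP and IRG genes. RefSeq promoter windows of GRCm38.p6 ran from 250 bases before to 50 bases after a transcription start. Of the 10 genes, 6 were searched, in 7 windows. Windows were missing for Gbp6, Gbp8 and Gbp9. Iigp1 was left out of the search, so its promoter was not examined. Each line gives 110 bases before and 10 bases after the start, 5′ to 3′ on the gene's own strand, with ISRE matches (GAAA, any 2 bases and GAAA again, on either strand) and GAS matches (TTCNNNGAA, which reads the same on both strands) in capitals.
Gbp7, chr3:142530226-142530345, plus strand: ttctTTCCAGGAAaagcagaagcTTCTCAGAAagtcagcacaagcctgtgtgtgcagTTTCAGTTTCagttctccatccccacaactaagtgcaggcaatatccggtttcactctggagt
Gbp3, chr3:142559934-142560053, plus strand: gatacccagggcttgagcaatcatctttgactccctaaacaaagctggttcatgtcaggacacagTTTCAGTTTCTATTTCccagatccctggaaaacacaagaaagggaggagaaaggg
Gbp2, chr3:142620553-142620672, plus strand: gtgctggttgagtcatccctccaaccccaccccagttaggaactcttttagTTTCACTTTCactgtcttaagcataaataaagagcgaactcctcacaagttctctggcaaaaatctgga
Irgm1, chr11:48871411-48871530, minus strand: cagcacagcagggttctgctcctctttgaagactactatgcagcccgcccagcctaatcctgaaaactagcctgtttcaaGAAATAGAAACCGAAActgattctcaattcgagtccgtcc
Igtp, chr11:58199446-58199565, plus strand: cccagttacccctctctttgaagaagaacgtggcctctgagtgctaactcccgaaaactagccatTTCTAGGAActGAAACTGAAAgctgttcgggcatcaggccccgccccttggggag
Irgm2, chr11:58214867-58214986, plus strand: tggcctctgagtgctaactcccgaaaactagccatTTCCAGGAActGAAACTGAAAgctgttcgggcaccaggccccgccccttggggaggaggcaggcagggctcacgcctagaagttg
An ISRE match lay in all 6 genes shown, against 3.44% of all 32851 windows of 300 bases in the table. Gbp3 and Irgm1 each held 2 ISRE matches that overlap in 1 run of 16 bases. A GAS match lay in 3 of the 6 genes, Gbp7, Igtp and Irgm2, against 8.3% of all windows, and Gbp7 held 2. In Igtp and Irgm2, neighbors on chromosome 11, the GAS match stood 2 bases before the ISRE match. The same spacing was found in Tgtp1 and Tgtp2, relatives on the same chromosome. Both motifs together occurred in 0.454% of all windows. Gbp3 has a further window, not printed, that held neither motif. A match of letters is a description and does not show that a factor binds there.

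In the deposited mm10 coordinates, Gbp7 (chr3:142530336-142550151), Gbp3 (chr3:142560044-142573213) and Gbp2 (chr3:142620663-142638008) lay on the plus strand of 1 cluster, with Gbp2b between Gbp3 and Gbp2, 55.5 to 55.6 Mb from the deleted Cd1d1. Gbp8 (chr5:105014153-105053561), Gbp9 (chr5:105076466-105110292) and Gbp6 (chr5:105270702-105293699) lay on the minus strand of chromosome 5. Irgm1 (chr11:48865245-48871420, minus strand), Igtp (chr11:58199556-58207592, plus strand) and Irgm2 (chr11:58214977-58222783, plus strand) were on chromosome 11. Among the genes followed here, only Iigp1 (chr18:60373616-60392629, plus strand) was on chromosome 18, near its relatives Gm4951, Gm4841 and F830016B08Rik. Counts were summed over all annotated exons, untranslated regions included.

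Total counts ranged from 23610266 to 31629435 per sample. Within each genotype no sample was a copy of another, and pairs across genotypes were not compared. The targeted gene fitted its labels, with 0 to 7.15 normalized counts of Cd1d1 in CD1d-KO and 61.1 to 91.1 in WT samples. CD1d-KO replicates 1 and 2 carried 6235 and 7293 counts of 4 Y-linked genes (Ddx3y, Eif2s3y, Kdm5d and Uty), while the other 6 samples had 0 or 1. No WT sample carried such counts, although the methods describe matched sexes, and the comparison of genotypes is given below for each of the 10 genes with and without this pair, called the Y-positive samples. The methods do not say which samples were processed together, so sex and processing group cannot be told apart among CD1d-KO mice. Nnt, which carries a deletion in the C57BL/6J substrain, spanned 4432 to 4979 normalized counts in CD1d-KO mice against 1756 to 1902 in WT mice, so that substrain background and genotype cannot be told apart either. Epithelial markers such as Epcam and Vil1 dominated all samples, with a summed level of 535737 to 619776 over 15 genes. Of these, 1 passed in DESeq2 (against 4.03% of all genes tested), the Paneth cell gene Lyz1. It was higher in CD1d-KO, with a log2 fold change of 0.73 ± 0.23 (SE, adjusted p = 0.0416 in DESeq2 and 0.0858 in edgeR).

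In WT IECs the regulators were by far the most abundant of the 10. Levels are given here as normalized counts per kilobase of exon, so that genes of different length can be compared. Irgm1 stood at 913.6 ± 136 (SD, n = 4), followed by Igtp at 302.9 ± 73.8 and Irgm2 at 197 ± 27.7. Among GBPs, Gbp7 led at 49.1 ± 3.87, followed by Gbp6 at 35.1 ± 5.08 (SD, n = 4). The ranges over the 4 WT samples did not overlap between neighbors from Irgm1 down to Gbp2. From Gbp2 (24.6 ± 6.62) through Gbp3 (22.8 ± 7.44), Iigp1 (18.5 ± 5.19) and Gbp8 (16.7 ± 10.6) to Gbp9 (7.44 ± 2.3), each gene's range overlapped that of the next.

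By DESeq2, CD1d-KO IECs held less mRNA of Gbp3, Gbp6 and Gbp7 than WT IECs, while by edgeR none of the 10 genes passed. These 3 of the 10 genes passed the test, all lower in CD1d-KO (DESeq2 Wald test, Benjamini-Hochberg adjusted p under 0.05), against 4.03% of the 15446 genes tested in either direction and 2.38% in the lower direction. They were also the 3 genes in which every CD1d-KO sample was below every WT sample, which held for 5.52% of all genes tested. None of the 4 IRG genes passed. All 10 fitted log2 fold changes were below 0, with a median of -0.89 (-0.97 over the 6 GBPs and -0.74 over the 4 IRGs), against 0.000995 over all genes tested. Since these are bulk samples, fewer cells of a type and less RNA per cell cannot be told apart. With edgeR's quasi-likelihood test, 0 of the 10 genes passed after adjustment, against 1.66% of 13744 genes, and 4 of the 10 had an unadjusted p under 0.05, against 16.0% of genes. With DESeq2 5 of the 10 had an unadjusted p under 0.05, against 15.3% of genes.

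**Figure D1:**
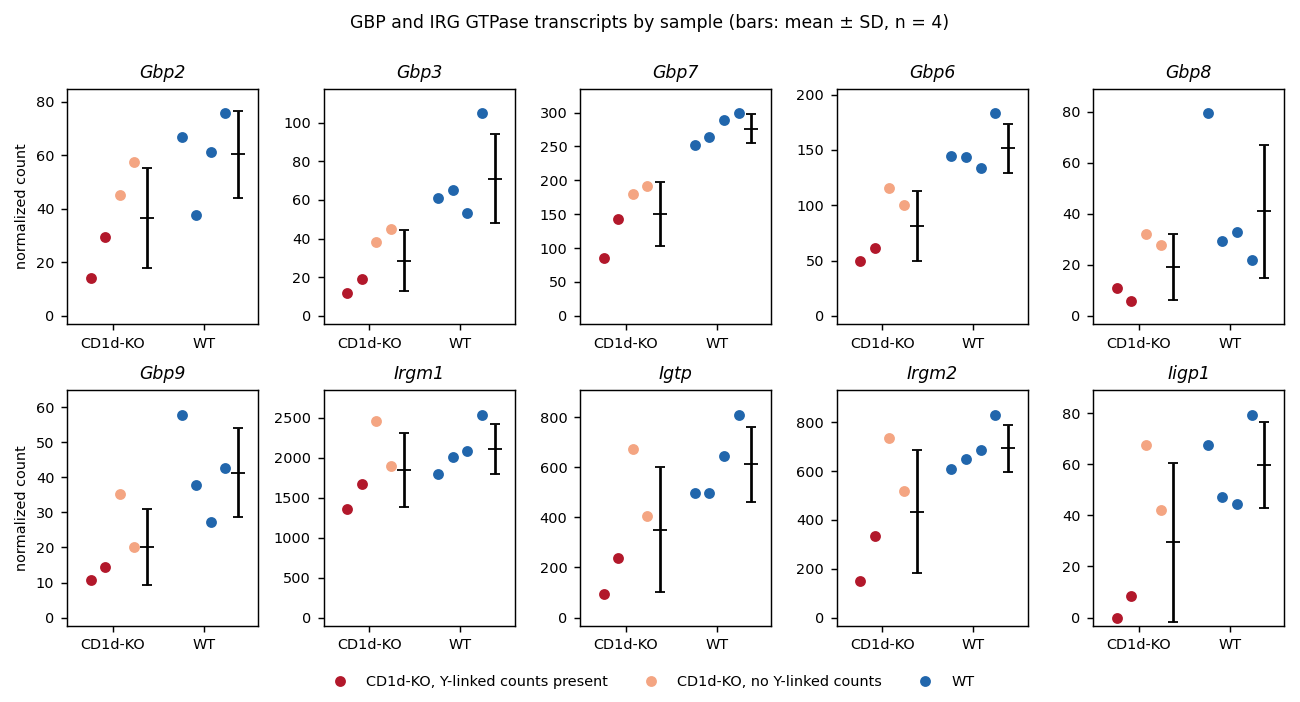
Normalized counts (vertical axis, a separate scale for each gene) of the 10 GBP and IRG genes in the 4 CD1d-KO and 4 WT samples, with points for samples and the mean ± SD of each genotype, and with the 2 Y-positive CD1d-KO samples marked. In every panel those 2 samples are below all 6 other samples, and in the panels of Gbp3, Gbp6 and Gbp7 all 4 CD1d-KO samples are below all 4 WT samples.

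Gbp7, a GBP found at pathogen vacuoles, had normalized counts of 85.8, 142.9, 179.9 and 192.0 in CD1d-KO replicates 1 to 4 and of 252.3, 264.1, 288.9 and 299.5 in WT replicates 1 to 4. The genotypes did not overlap, and the lowest values were those of the 2 Y-positive samples. The log2 fold change was -0.88 ± 0.21 (SE), with an adjusted p of 0.00151 in DESeq2 and 0.0587 in edgeR. Gbp7 passed in each of the 8 DESeq2 fits that left out 1 sample (adjusted p from 0.000183 to 0.0143). Of its 50-base words, 15.7% also occur in transcripts of other genes. Without the 2 Y-positive samples it was the 1 gene of the 10 that still passed, at -0.57 ± 0.17 (adjusted p = 0.0343, DESeq2).

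Gbp3 had the most negative fitted fold change of the 10. Its normalized counts were 11.6, 19.0, 38.1 and 45.1 in CD1d-KO, against 60.9, 65.0, 53.3 and 105.1 in WT samples, in the order of the replicates. The closest values, 45.1 and 53.3, nearly met, and WT replicate 4 stood above the other WT samples. The log2 fold change was -1.32 ± 0.38 (SE), with an adjusted p of 0.0217 in DESeq2 and 0.119 in edgeR. Leaving out CD1d-KO replicate 1 or 2, or WT replicate 2 or 4, ended the call, with an adjusted p of up to 0.144 in DESeq2. Without the 2 Y-positive samples the value was -0.76 ± 0.36 (adjusted p = 0.366, DESeq2).

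Gbp6, from the chromosome 5 cluster, had normalized counts of 49.2, 61.0, 115.3 and 99.8 in CD1d-KO, against 144.3, 143.6, 133.8 and 183.4 in WT samples. Both pairs of CD1d-KO samples were below all WT samples, and the Y-positive pair was the lower one. The log2 fold change was -0.90 ± 0.25 (SE), with an adjusted p of 0.0147 in DESeq2 and 0.105 in edgeR. The same 4 samples as for Gbp3 each ended the call when left out, with an adjusted p of up to 0.0981 in DESeq2. Without the Y-positive samples the value was -0.49 ± 0.23 (adjusted p = 0.358, DESeq2). The count of Gbp6 is uncertain, because 61.6% of the 50-base words of its transcripts also occur in other genes, among them Gbp10 (51.4%). Gbp10 itself held 0 to 3 raw counts per sample, and an exchange of reads between these genes was not tested.

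The other 3 GBPs did not pass. Gbp9 had 10.7, 14.3, 35.2 and 20.2 normalized counts in CD1d-KO against 57.9, 37.7, 27.1 and 42.8 in WT samples. Only CD1d-KO replicate 3 reached into the WT range, and the log2 fold change was -1.05 ± 0.40 (SE, adjusted p = 0.127 in DESeq2 and 0.195 in edgeR). Without that sample Gbp9 passed, with an adjusted p of 0.0135 in DESeq2. Gbp8 ranged from 5.71 to 32.3 in CD1d-KO and from 22.0 to 79.5 in WT samples, and WT replicate 1 alone was far above the rest. Its log2 fold change was -1.11 ± 0.53 (SE, adjusted p = 0.285, DESeq2). Gbp2, a GBP with a lipid anchor that is recruited to pathogen vacuoles, ranged from 14.3 to 57.6 in CD1d-KO and from 37.7 to 75.8 in WT samples, with a log2 fold change of -0.72 ± 0.38 (SE, adjusted p = 0.342, DESeq2). Without the Y-positive samples the log2 fold changes were -0.58 ± 0.45 for Gbp9, -0.45 ± 0.51 for Gbp8 and -0.23 ± 0.35 for Gbp2 (SE), and none passed in DESeq2 (adjusted p of 0.726, 0.85 and 0.903). A microRNA gene, Mir6381, lies on an exon of Gbp2, and pairs that touch both were not counted.

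None of the IRGs passed for genotype in DESeq2 or edgeR. Their median log2 fold change in DESeq2 was -0.74 over all samples and -0.13 without the Y-positive samples. Iigp1, the effector, had normalized counts of 0, 8.57, 67.4 and 42.2 in CD1d-KO, against 67.7, 47.2, 44.6 and 79.5 in WT samples. CD1d-KO replicate 1 had no count at all, which at a floor of 3 counts allows up to 2.68 normalized counts, and replicate 3 was inside the WT range. The fitted log2 fold change over all samples was -1.02 ± 1.15 (SE, adjusted p = 0.785, DESeq2), and without the 2 Y-positive samples it was -0.12 ± 0.36 (adjusted p = 0.96, DESeq2). It was -1.82 without CD1d-KO replicate 3, -0.60 without CD1d-KO replicate 1 and -2.03 with the replicate number as a block, and passed in none of these fits.

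The regulators Igtp and Irgm2 showed a like order of samples. Igtp had 92.1, 237.2, 671.5 and 406.1 normalized counts in CD1d-KO, against 496.8, 497.8, 645.7 and 810.6 in WT samples. Irgm2 had 149.3, 333.4, 735.1 and 518.4 in CD1d-KO, against 607.7, 649.8, 685.4 and 831.3 in WT samples. In both genes replicates 1 and 2 of CD1d-KO were the lowest of all samples, replicate 4 was below the WT range and replicate 3 was inside it. The log2 fold changes were -0.80 ± 0.58 for Igtp (SE, adjusted p = 0.571) and -0.68 ± 0.46 for Irgm2 (SE, adjusted p = 0.54), both from DESeq2. Without the Y-positive samples they were -0.18 ± 0.21 and -0.14 ± 0.16 (SE, adjusted p of 0.857 and 0.852, DESeq2). Irgm1, the most abundant, had 1355, 1675, 2455 and 1901 normalized counts in CD1d-KO, against 1794, 2007, 2083 and 2539 in WT samples. Its log2 fold change of -0.19 ± 0.16 (SE, adjusted p = 0.648, DESeq2) turned to 0.05 ± 0.14 without the Y-positive samples.

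**Figure D2:**
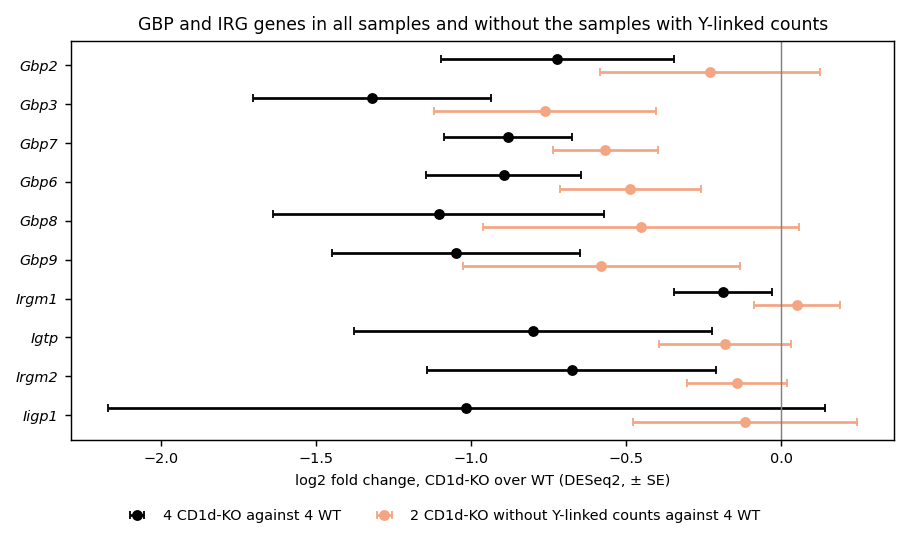
Log2 fold change of CD1d-KO over WT (horizontal axis, DESeq2, bars are SE) for the 10 genes, in all 8 samples and without the 2 Y-positive CD1d-KO samples. All 10 values are below 0 in all samples, with a median of -0.89, and without the 2 samples they lie closer to 0, with a median of -0.34 and Irgm1 at 0.05.

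The levels also varied within the CD1d-KO group. In all 10 genes, both Y-positive CD1d-KO samples were below all 6 other samples, an order found in 8.22% of all genes tested. Of the 12 values of GBP genes in the other 2 CD1d-KO samples, 7 were below the lowest WT sample, and of the 8 values of IRG genes, 3 were. All these values come from the same 2 mice, and the share over all genes was not computed for these counts. Without the Y-positive samples, 1 of the 10 genes passed, against 2.57% of 14473 genes in either direction and 1.35% in the lower direction. The median log2 fold change was then -0.34 over the 10 genes, -0.53 over the GBPs and -0.13 over the IRGs. With the presence of Y-linked counts as a covariate, 0 of the 10 passed for genotype in DESeq2, against 3.04% of 13994 genes, and Gbp7 had the lowest adjusted p at 0.0844. The difference in fold change between GBPs and IRGs was not tested.

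The covariate's own term compares the Y-positive with the Y-negative CD1d-KO samples, 2 against 2, with the spread estimated over all 8 samples. This term was read after the values had been seen. Iigp1 (-3.71 ± 0.67, SE), Irgm2 (-1.38 ± 0.41) and Gbp6 (-0.97 ± 0.28) passed in it, with adjusted p-values of 1.5e-05, 0.0498 and 0.0363 in DESeq2, against 1.61% of 13630 genes in either direction and 1.2% in the lower direction. All 10 values were below 0, from -0.52 (Irgm1) to -3.71, with a median of -1.31, against -0.0066 over all genes tested.

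Leukocytes respond to interferons and express many of these genes too. Among 18 tested leukocyte markers, 4 were lower in CD1d-KO in DESeq2, against 2.38% of all genes tested: Cd3g and Cd8a of T cells, Itgam of myeloid cells and Jchain of plasma cells. In edgeR 0 of 11 passed, against 1.66% of genes, and 8 had an unadjusted p under 0.05, against 16.0% of genes. The adjusted p in edgeR was 0.0572 for Jchain and 0.0773 for Itgam. Jchain passed in all 8 DESeq2 fits that left out 1 sample, Itgam in 5, Cd8a in 3 and Cd3g in 1, and without WT replicate 1 the adjusted p-values of Itgam, Cd8a and Cd3g were 0.0821, 0.514 and 0.474. The summed level of the list without Cd74 was 950.1 to 1130 in CD1d-KO and 1193 to 2726 in WT samples, and 2 of its members, Adgre1 and C1qb, were at or under 5 in every sample. Other myeloid markers were present in both genotypes, with 86.0 to 244 normalized counts of Cd68, 10.5 to 28.6 of Lyz2 and 2.68 to 8.38 of C1qa. Among CD1d-KO samples this sum was 1130 and 1061 in the Y-positive and 950.1 and 1091 in the others. Cd74, which epithelial cells also make when CIITA is active, went from 298.6 and 896.2 in the former to 9507 and 7712 in the latter. Markers of stomach and Brunner's glands summed to 830.9 to 1740 in CD1d-KO and 2686 to 17776 in WT samples. Of 12 tested, 6 were lower and 1 was higher in CD1d-KO in DESeq2, against 4.03% of all genes tested. In edgeR 9 of 13 passed, against 1.66% of genes. The median log2 fold change of this list was -4.69, and -3.80 without the Y-positive samples, a fit in which 0 of 13 passed in DESeq2. Globin genes were at 0 throughout, and 6 of 12 endothelial and stromal markers (Cdh5, Kdr, Emcn, Col1a1, Col1a2 and Col3a1) were at or under 5. Others were higher, such as Pdgfrb at 97.8 to 171, Vwf at 34.2 to 64.8 and Pecam1 at 6.29 to 29.5 normalized counts. With a score of the leukocyte list as a covariate, 0 of the 10 genes passed in DESeq2, against 125 of 16905 genes tested. The log2 fold changes of Gbp3, Gbp6 and Gbp7 were then -1.36, -0.88 and -0.90, close to those without it (adjusted p of 0.412, 0.445 and 0.144). With a score of the stomach list 0 of the 10 passed as well, against 103 of 15086 genes, and these values were -0.51, -0.54 and -0.37 (adjusted p of 0.904, 0.812 and 0.832, DESeq2). The stomach score ran from -2.77 to 0.277 in CD1d-KO and from 0.81 to 3.53 in WT samples, without overlap. The leukocyte score, at -0.901 to -0.164 and -0.318 to 1.78, overlapped in part. The SE of Gbp7 rose from 0.21 to 0.29 with the leukocyte and 0.35 with the stomach score. These fits can therefore hardly tell a score from genotype.

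The other members of the GBP, IRG, GVIN and Mx families (GVIN are very large inducible GTPases) were 24 genes in the table. Of the 16 tested, 2 passed in DESeq2, both lower in CD1d-KO, against 2.38% of all genes tested in that direction. Tgtp1, an effector IRG, was at 8.91 ± 7.20 in CD1d-KO and 31.1 ± 6.95 in WT samples (SD, n = 4), and its log2 fold change was -1.81 ± 0.55 (SE, adjusted p = 0.031, DESeq2). Mx2, an antiviral GTPase, was at 65.5 ± 21.6 and 109 ± 10.4 (SD, n = 4), with -0.74 ± 0.23 (SE, adjusted p = 0.043, DESeq2). In DESeq2 the call of Tgtp1 ended without CD1d-KO replicate 1 or 4 or WT replicate 1, 2 or 4 (adjusted p up to 0.193), and that of Mx2 without CD1d-KO replicate 1 or 2 or any 1 WT sample (up to 0.229). With edgeR 0 of 12 tested passed, against 1.66% of genes, and 6 had an unadjusted p under 0.05, against 16.0% of genes. The effector IRG Gm12250 (Irgb10) had 93.9, 135.2, 375.4 and 307.2 normalized counts in CD1d-KO and 373.1 to 663.8 in WT samples. Its 2 lowest values were again those of the Y-positive samples, and it passed in their term (-1.58 ± 0.26, SE, adjusted p = 1.69e-06, DESeq2) and not for genotype (adjusted p = 0.226). Tgtp2 (adjusted p = 0.037) and Ifi47 (0.000272) also passed in that term in DESeq2, and neither passed for genotype. Tgtp1 (-1.60 ± 0.57, SE, adjusted p = 0.126) and Mx2 (-0.39 ± 0.25, SE, adjusted p = 0.63) did not pass in DESeq2 without the Y-positive samples. Gbp4 and Gbp5 were low, with WT means of 16.1 and 4.45 normalized counts, and Gbp2b had none in WT. Tgtp1 and Tgtp2 are near-identical copies, and their counts can be exchanged.

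Several genes of interferon signaling were lower in CD1d-KO IECs. Of 23 tested genes for receptors, JAK-STAT proteins, IRFs and regulators, 8 were lower and 1 was higher in DESeq2. Over all genes tested, 2.38% were called lower and 4.03% in either direction. The median log2 fold change of the 23 genes was -0.32. Stat2 and Irf9, which act together at ISREs, were at 1099 ± 168 and 1082 ± 73.6 normalized counts in CD1d-KO and at 1611 ± 48.5 and 1476 ± 108 in WT samples (SD, n = 4). Their log2 fold changes were -0.55 ± 0.10 (adjusted p = 1.94e-05 in DESeq2, 0.0147 in edgeR) and -0.45 ± 0.08 (9.16e-06 and 0.0115), and both passed in all 8 fits that left out 1 sample and without the Y-positive samples (0.00399 and 0.0187, DESeq2). Irf1, which also binds ISREs, went from 7018 ± 390.1 in WT to 5566 ± 425.5 in CD1d-KO samples (-0.33 ± 0.07, SE, adjusted p = 0.000465 in DESeq2 and 0.0324 in edgeR). Without the Y-positive samples its adjusted p was 0.0647, and with Y-linked counts as a covariate it was 0.0445 (DESeq2).

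Stat3, Irf7, Batf2 and the feedback inhibitor Socs3 were lower as well, with log2 fold changes from -0.36 to -1.10. None of these 4 passed in DESeq2 without the Y-positive samples, with adjusted p-values of 0.083 for Stat3, 0.438 for Irf7, 0.0876 for Batf2 and 0.0902 for Socs3. With Y-linked counts as a covariate, Stat3 (adjusted p = 0.0379) and Socs3 (0.000317) passed in DESeq2, while Irf7 (0.406) and Batf2 (0.0556) did not. Of the 9 called genes, 7 passed in edgeR too, all but Irf7 and Ifngr1. Nlrc5, the transactivator of MHC class I genes, was lower by the widest margin of the list (-2.15 ± 0.68, SE, adjusted p = 0.0453 in DESeq2 and 0.049 in edgeR). Its normalized counts were 8.94, 47.6, 120.2 and 79.7 in CD1d-KO and 187.6 to 392.4 in WT samples. Nlrc5 without the Y-positive samples was at -1.50 ± 0.27 (SE, adjusted p = 5.12e-06, DESeq2). With Y-linked counts as a covariate it was at -1.51 ± 0.64 and did not pass (SE, adjusted p = 0.231, DESeq2). In DESeq2 the call of Nlrc5 ended without CD1d-KO replicate 2 or 4 or any 1 WT sample (adjusted p up to 0.213), and that of Irf7 without CD1d-KO replicate 1 or 2 or WT replicate 1, 2 or 4 (up to 0.149). Ciita, the counterpart of Nlrc5 for MHC class II, did not pass for genotype over all samples (adjusted p = 0.342, DESeq2). It passed without the Y-positive samples (-0.56, adjusted p = 0.00645, DESeq2). With Y-linked counts as a covariate it did not pass for genotype (-0.56 ± 0.39, SE, adjusted p = 0.616, DESeq2). In that covariate fit it passed in the term of the Y-positive samples (-2.27 ± 0.46, SE, adjusted p = 0.000353, DESeq2). Ifngr1, a chain of the interferon-gamma receptor, was the 1 gene that was higher, at 6258 ± 413 in CD1d-KO against 5241 ± 195 in WT samples (0.26 ± 0.06, SE, adjusted p = 0.00462 in DESeq2 and 0.0644 in edgeR), and its call ended without CD1d-KO replicate 2 (0.0548, DESeq2) and without both Y-positive samples (0.288). Ifngr2 (0.18 ± 0.07, adjusted p = 0.169) and Irf8 (-0.16 ± 0.09, adjusted p = 0.367) did not pass in DESeq2. Ifng itself had counts in 1 WT sample alone, at 2.95 normalized counts.

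**Figure D3:**
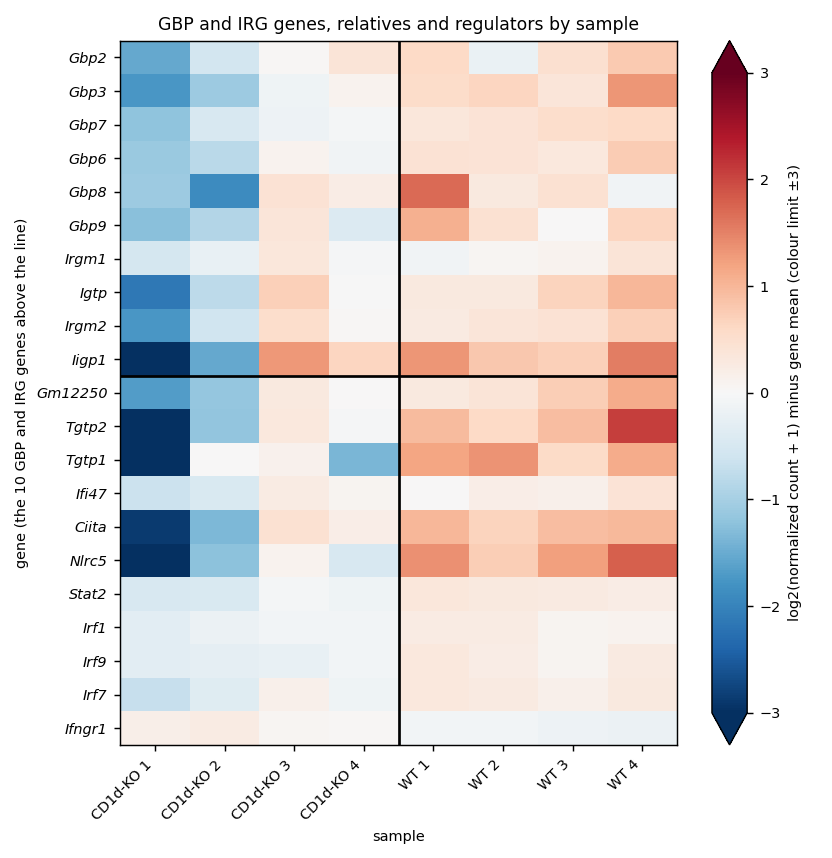
Log2(normalized count + 1) minus the gene's mean over the 8 samples (color, limited at ±3) for the 10 genes, above the line, and for relatives and regulators, below it, with samples in columns. The columns of CD1d-KO replicates 1 and 2 are the lowest in all 10 genes, and Stat2, Irf1 and Irf9 are below WT in all 4 CD1d-KO columns.

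The next list held genes that work with GBPs and IRGs in the attack on vacuoles. Of 18 genes for autophagy proteins and ubiquitin ligases, 1 passed in DESeq2, against 4.03% of all genes tested. It was Rnf213, a ubiquitin ligase that coats bacteria and vacuoles. Rnf213 was at 4405 ± 294.8 normalized counts in CD1d-KO and 6445 ± 955 in WT samples (SD, n = 4). Its log2 fold change was -0.55 ± 0.10 (SE, adjusted p = 8.38e-06 in DESeq2 and 0.0141 in edgeR). Rnf213 passed without the Y-positive samples too (adjusted p = 0.00526, DESeq2). The autophagy gene Atg16l1 (-0.18 ± 0.09, adjusted p = 0.267) and the ubiquitin ligase Trim21 (-0.24 ± 0.10, adjusted p = 0.164) did not pass in DESeq2, and the median over the 18 genes was 0.06. Of the 7 enzymes that attach or process lipid anchors, 0 passed in DESeq2 or edgeR. With either tool 0 had an unadjusted p under 0.05, against 15.3% of all genes in DESeq2 and 16.0% in edgeR.

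Of 11 tested inflammasome and effector genes, 2 passed in DESeq2, both lower in CD1d-KO, against 2.38% of all genes tested in that direction. Nos2, which makes nitric oxide, was at 640 ± 168 normalized counts in CD1d-KO and 2373 ± 553 in WT samples (SD, n = 4; -1.89 ± 0.25, SE, adjusted p = 5.2e-11 in DESeq2 and 0.00122 in edgeR). Nos2 gave 619.6 and 682.9 in the Y-positive samples and 830.9 and 426.3 in the other CD1d-KO samples, so these pairs overlapped. Cybb, the phagocyte oxidase subunit, had 0 counts in all CD1d-KO and 20 in all WT samples, and was at least 7.38-fold lower at a floor of 3 counts over the group. WT replicate 1 held 13 of these 20 counts, and without it the bound was 3.52-fold. In the 3 fits that left out 1 sample and in which it was tested, Cybb did not pass. Casp4, the caspase that senses bacterial lipopolysaccharide, had an adjusted p of 0.0614 over all samples (-0.36 ± 0.12, SE, DESeq2). It passed without the Y-positive samples (-0.46 ± 0.14, SE, adjusted p = 0.0429), with Y-linked counts as a covariate (0.0303) and in 3 of 8 DESeq2 fits that left out 1 sample. The median over the 11 genes was -0.22.

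**Figure D4:**
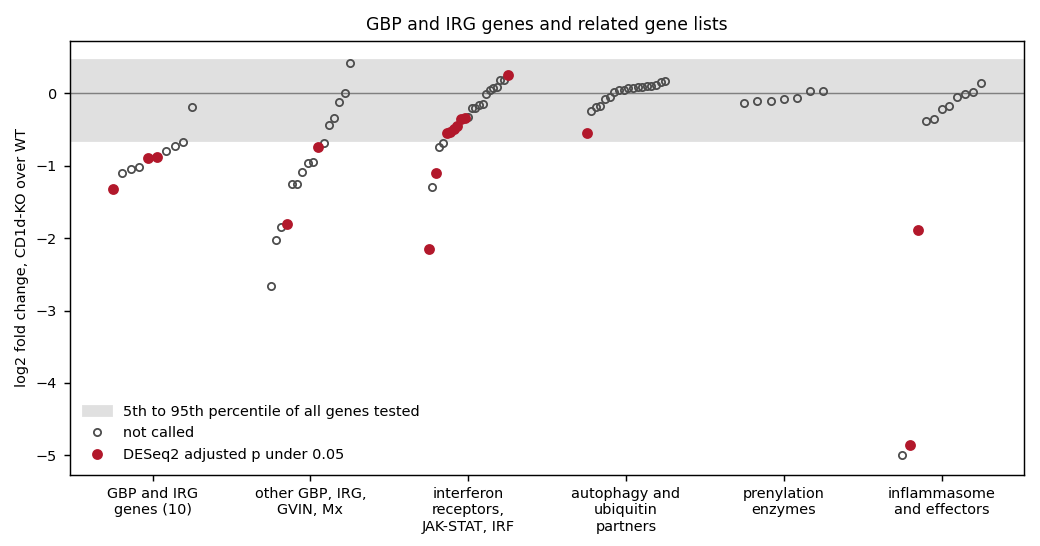
Log2 fold change of CD1d-KO over WT (vertical axis, DESeq2) for each tested gene of the 10 GTPases and of 5 related lists, with filled points for adjusted p under 0.05 and a gray band from the 5th to the 95th percentile of all genes tested (-0.65 to 0.46). The called genes are 3 of 10 GTPases, 2 of 16 relatives, 9 of 23 interferon signaling genes, 1 of 18 partners, 0 of 7 prenylation enzymes and 2 of 11 inflammasome and effector genes. Over all genes tested, 4.03% were called. The value of Cybb is fitted from counts of 0 in all CD1d-KO samples.

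Outside these lists, the genes whose pattern over the 8 samples was most like that of the GTPases were Isg15, Sp140, Oasl2, Rtp4, Psmb8 and Tap2. Likeness was the root mean square distance between centered log2(normalized count + 1) values and the mean profile of the 5 GTPases with a mean of at least 50 normalized counts (Gbp6, Gbp7, Igtp, Irgm1 and Irgm2). It ran from 0.143 for Isg15 to 0.225 for Tap2, against a median of 0.629 over 11618 genes. Oasl2 had 464.9 and 515.3 normalized counts in the Y-positive CD1d-KO samples, 1151 and 897.7 in the others and 984.7 to 1367 in WT samples. Psmb8, an immunoproteasome subunit, had 920 and 1070 in the former, 2322 and 1991 in the latter and 2792 to 3411 in WT samples. All CD1d-KO samples were thus below WT samples in Psmb8 but not in Oasl2. For genotype, none of the 6 passed over all samples (adjusted p from 0.0548 to 0.497 in DESeq2 and from 0.0828 to 0.497 in edgeR), and Psmb8 alone passed without the Y-positive samples (adjusted p = 0.000399, DESeq2).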

How the data were processed

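Poly(A) RNA of IECs sorted from 4 CD1d-KO and 4 WT mice was sequenced with a KAPA mRNA kit. The authors deposited raw fragment counts per gene, which per the file headers came from featureCounts 1.6.4 run on exons and read pairs, with primary alignments and without strand. The header names an mm10 RefSeq annotation, and the methods name HISAT2 against GRCm39. Coordinates printed are mm10, and 5 of the 10 genes had the same start and end as in RefSeq GRCm38.p6. A read that fits several places was counted at 1 of them. All 8 sample columns were used and 0 were left over.

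Genotypes were tested in DESeq2 1.42.0 under R 4.3.3, the study's tool, with no further covariate, with size factors by median of ratios, with Cook's rule and with independent filtering (mean normalized count of 2.41). Benjamini-Hochberg adjustment ran over the 15446 genes tested, and an adjusted p under 0.05 was called. On simulated counts DESeq2 made more false calls than this threshold allows, while edgeR 4.0.16 (quasi-likelihood test) stayed near it. The simulation gave all genes the same dispersion (spread beyond counting), unlike these data, so it does not measure the false share here. Values from edgeR are therefore given beside the calls. Counting error covers counting only, since no molecular identifiers were used and reads are not separate molecules. Alternatives were TMM factors, 10 counts in at least 4 samples, no independent filtering, a replicate block, leaving out the samples with Y-linked counts or taking these as a covariate, scores of leukocyte or stomach markers as covariates, and leaving out each sample.

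Samples were grouped by their labels. The 10 genes and all lists were chosen with earlier results of these data known. Named genes were the 10, every called gene and the 3 lowest unadjusted p-values of a list, a set of relatives and interferon genes, and the 6 genes nearest in profile. A few items under this rule are not reported here. Sequences came from RefSeq, and 50-base words were compared over GENCODE vM39 transcripts. Columns of normalized values were computed here.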

Additional observations from a re-analysis of the deposited data

How the results depend on the processing

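The main fit called 622 genes over the whole table. In edgeR 228 were called (224 of them among the 622), and without the samples with Y-linked counts 372 (248 among the 622). The fits with the leukocyte or the stomach score as a covariate called 125 and 103 (111 and 65 among the 622). The 3 calls among the 10 GTPases became 0 with edgeR, with Y-linked counts as a covariate, with the leukocyte score and with the stomach score, and 1 without the samples with Y-linked counts. The 2 calls among relatives became 1 without independent filtering and 0 with edgeR, without the samples with Y-linked counts, with these as a covariate, and with either score. The 9 interferon signaling calls became 4 without the samples with Y-linked counts, 5 with these as a covariate, 0 with the leukocyte score and 1 with the stomach score. The 1 partner gene became 0 with the stomach score. The 2 inflammasome genes became 1 with edgeR, with at least 10 counts in 4 samples, without independent filtering and with either score. Without the samples with Y-linked counts, and with these as a covariate, 2 were called, of which 1 was among the first 2. The log2 fold changes of Gbp3, Gbp6 and Gbp7 were -1.32, -0.90 and -0.88 in edgeR and -1.36, -0.88 and -0.90 with the leukocyte score, near the main values, but -0.76, -0.49 and -0.57 with Y-linked counts as a covariate and -0.51, -0.54 and -0.37 with the stomach score. Both scores largely follow genotype, so these fits can hardly tell a score from genotype. The cause was not tested.

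Leaving out 1 sample gave 323 to 646 calls over all genes, 1 to 4 among the 10, 0 to 3 among relatives, 6 to 12 in interferon signaling and 1 to 2 among inflammasome genes. For the 10 GTPases, 1 call was left without CD1d-KO replicate 1 or 2 or WT replicate 2 or 4. The median log2 fold change of the 10 then ran from -1.22 to -0.64.

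Over 170 alternative values of the 10 genes, 142 kept their direction and side of the threshold, 22 lost the call, 1 gained it and 5 changed sign. The sign changed for Gbp2 (0.18) and Irgm1 (0.043) with the stomach score, for Gbp8 with the leukocyte score (0.036), and for Irgm1 without the samples with Y-linked counts (0.051) and with these as a covariate (0.049).

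Samples with the same replicate number did not deviate together in every pair (correlations of 0.285, 0.025, 0.221 and 0.00395 over 11721 genes, and 3 of 8 samples correlated best with their own number). With a replicate block, 569 genes and the same 3 of the 10 GTPases were called. The lowest counts limit Gbp8, Gbp9 and Iigp1 most.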
